A study of Mus musculus with 20 samples.

Results

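The 8 genes described here, of 55487 in the count table, are noncoding RNAs of a list fixed by name, drawn up with earlier results of these data known. They are Malat1, Neat1, Meg3, Rian, Mirg, Miat, Kcnq1ot1 and Snhg11, and all 8 were found in the table by symbol. Each was followed through 20 RNA libraries of mouse subcerebral projection neurons at postnatal day 1, the cortical neurons whose axons leave the cortex for brainstem and spinal cord. Soma libraries came from cortical cell bodies, and growth cone libraries came from the tips of growing axons in brainstem and spinal cord. RNA input was 0.19 to 3.1 ng for growth cone libraries and 1.8 to 3.1 ng for soma libraries. No experiment number in the titles is shared between the compartments. Differences between compartments therefore cannot be told apart from differences of experiment or input. There were 5 libraries in each of 4 groups: wild-type (WT) somata, somata labelled knockout (KO) for Bcl11b, WT growth cones and growth cones labelled KO. Bcl11b, also known as Ctip2, encodes a transcription factor of these neurons, and the design asks how its loss changes the RNA of either compartment. The strain, the allele, the way the cells were labelled and sorted, and whether animals were pooled are not given in the sources used here. Nor do the labels say that libraries of one group came from separate animals, so p-values measure only the spread between these libraries.

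Total counts ran from 18962308 to 51205154 per library. The smallest ratio of chi-square to its degrees of freedom between libraries of one group was 52.7. Within a group, no library was thus a mere resequencing of another. Pairs across groups were not compared, and separate libraries from the same RNA cannot be recognised this way. Markers of subcerebral projection neurons (Fezf2, Ldb2, Crym and others) were measured in every group, with a summed level of 1564 to 2021 CPM (counts scaled to a common library size) in WT somata and 749 to 1000 CPM in WT growth cones. Bcl11b itself went against the soma labels. Its level was 537 to 805 CPM in WT somata and 1079 to 1231 CPM in somata labelled KO, without overlap (log2 fold change 0.71, adjusted p = 0.0153 by edgeR). The adjusted p was 0.0591 with adjustment for how many genes each library detected, and 0.279 with all 20 libraries in the fit, and 0.162 with the experiment number as a block. In growth cones it was 72.3 to 122 CPM in WT and 69.8 to 140 CPM in those labelled KO (0.03, adjusted p = 0.999). Which part of the gene the null allele lacks is not given in the sources used here, so these counts over all exons cannot test the labels fully. Every genotype comparison below rests on the labels as given.

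Long noncoding RNAs are transcripts without a long reading frame that often stay in the nucleus. Malat1 is a very abundant RNA of nuclear speckles, the bodies in which splicing factors gather, and Neat1 is the scaffold on which paraspeckles assemble. Miat, also called Gomafu, collects in nuclear bodies of its own in neurons and binds splicing factors. Imprinted genes are read from only 1 of the 2 parental chromosomes. Meg3, Rian and Mirg follow each other on the maternally expressed strand of the Dlk1-Dio3 locus, and the introns and exons of Rian and Mirg carry small nucleolar RNAs (snoRNAs) and microRNAs (miRNAs). Kcnq1ot1 is read from the paternal chromosome, antisense to Kcnq1, and silences neighbouring genes in cis. Snhg11 is a neuronal host gene of snoRNAs, which are cut out of its introns.

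All positions are those of the deposited table, which follows mouse build GRCm38. Malat1 (ENSMUSG00000092341.3, chromosome 19, 5795690 to 5802672, minus strand) and Neat1 (ENSMUSG00000092274.3, chromosome 19, 5824708 to 5845478, minus strand) are neighbours, each annotated as 1 exon. On the plus strand of chromosome 12 lie Meg3 (ENSMUSG00000021268.17, 109541001 to 109571726), Rian (ENSMUSG00000097451.11, 109603808 to 109661716) and Mirg (ENSMUSG00000097391.8, 109729764 to 109749460). These sit 1.54, 1.60 and 1.73 Mb from Bcl11b on the same chromosome. Miat (ENSMUSG00000097767.8) spans 112213228 to 112229395 on the minus strand of chromosome 5. Kcnq1ot1 (ENSMUSG00000101609.2) is 1 exon of 93092 bases, 143203458 to 143296549 on the minus strand of chromosome 7, inside Kcnq1. Snhg11 (ENSMUSG00000044349.16) spans 158375638 to 158386151 on the plus strand of chromosome 2, and GENCODE M21 gives it the biotype of a protein-coding gene.

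The cDNA kit named in the labels primes from poly(A) tails, so the annotated 3′ ends of the transcripts are shown first. Each stretch is the last 60 bases of 1 GENCODE M21 transcript of the gene, with the polyadenylation signals AATAAA and ATTAAA in capitals (searched on the transcript's own strand).
Malat1-201, chr19:5795690-5795749, minus strand: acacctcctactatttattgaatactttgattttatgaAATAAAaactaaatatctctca
Neat1-202, chr19:5842307-5842366, minus strand: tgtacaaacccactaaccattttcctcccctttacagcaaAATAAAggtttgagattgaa
Meg3-207, chr12:109571662-109571721, plus strand: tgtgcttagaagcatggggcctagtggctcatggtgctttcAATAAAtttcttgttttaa
Rian-202, chr12:109661657-109661716, plus strand: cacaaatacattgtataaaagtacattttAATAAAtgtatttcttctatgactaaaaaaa
Mirg-212, chr12:109749399-109749458, plus strand: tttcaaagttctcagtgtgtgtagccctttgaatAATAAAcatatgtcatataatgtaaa
Miat-205, chr5:112213228-112213287, minus strand: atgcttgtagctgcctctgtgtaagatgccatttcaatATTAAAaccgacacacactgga
Kcnq1ot1-201, chr7:143203458-143203517, minus strand: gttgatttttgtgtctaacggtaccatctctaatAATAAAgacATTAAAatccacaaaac
Each of these 7 ends holds a signal, ATTAAA alone in Miat-205 and AATAAA in the others. The transcripts were picked by hand for display, so this describes them alone. Of 141515 M21 transcripts, 27.2% hold AATAAA in their last 60 bases and 34.5% hold either. Neat1-202 is the short form, of 3004 bases, while the annotated gene covers 20771 bases. Malat1-201 holds 1 run of at least 10 A, of 12 bases. Kcnq1ot1-201 holds 10 such runs, the longest of 41 bases, and the other transcripts shown hold none. Whether each RNA carries a tail at its annotated end was not tested, and forms without a tail could be missed by this priming. How far cDNA began at such runs or at tails was not tested either. Both limit comparisons of level between RNAs.

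Miat is known for repeats of ACTAAC, the letters of a branch point, which a splicing factor binds. The densest stretch of Miat-205 shows 4 copies in capitals in 131 bases.
Miat-205, chr5:112217319-112217449, minus strand: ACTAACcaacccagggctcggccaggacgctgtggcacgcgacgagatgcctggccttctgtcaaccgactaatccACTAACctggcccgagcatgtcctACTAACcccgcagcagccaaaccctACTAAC
Miat-205 holds 11 copies in 9163 bases, or 1.2 per kb, and 0.19% of 54062 M21 transcripts of at least 1500 bases are as dense.

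Meg3, Rian and Mirg are thought to be read from the Meg3 promoter as one long unit. RefSeq gives Meg3 2 start regions, and the upstream one (GRCm38.p6, 250 bases before the start to 50 after it) is shown with the palindrome TGACGTCA, the full cAMP response element, in capitals.
Meg3 promoter, chr12:109540746-109541045, plus strand: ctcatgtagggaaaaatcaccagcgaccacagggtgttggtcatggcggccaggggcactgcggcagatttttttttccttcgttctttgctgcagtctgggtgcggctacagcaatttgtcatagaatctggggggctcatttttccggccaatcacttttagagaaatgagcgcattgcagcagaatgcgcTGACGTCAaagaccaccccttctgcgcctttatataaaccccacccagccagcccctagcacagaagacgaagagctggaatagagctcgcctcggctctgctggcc
The palindrome, which reads the same on both strands, ends 49 bases before the start, and 588 of 32851 such promoters (1.79%) hold it. The second Meg3 region, 109545148 to 109545447, does not hold these letters. No RefSeq start region was matched for Neat1.

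The 3 chromosome 12 RNAs host 20 annotated miRNA genes, 2 in Meg3, 4 in Rian and 14 in Mirg. Over all 20 libraries these genes were given 40 counts, 37 of them inside Mirg, and 14 of the 20 had none. The counts below are those given to the host genes. Whether reads shared with a host exon were left out of the miRNA counts was not tested. Of these miRNA genes 19 matched RefSeq, with 35 mature sequences. The genes with the most counts, 15 each over all 20 libraries, also share a seed (bases 2 to 8, in capitals). The largest count of a miRNA gene of Mirg in any single library was also 15. Such totals can thus come from a single library, and the sequences are shown only as examples. Also in Mirg lie miR-134, known to act in dendrites, and miR-154.
miR-453: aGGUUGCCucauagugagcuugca
miR-496a-5p: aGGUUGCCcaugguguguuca
miR-134-5p: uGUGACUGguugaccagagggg
miR-154-5p: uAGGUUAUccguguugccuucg

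Growth cones differed from somata in 2 of the 8 RNAs in WT and in 1 in the libraries labelled KO. Snhg11 was higher in growth cones of both genotypes, 11.6-fold in WT and 23.5-fold in those labelled KO. Mirg was 18.4-fold higher in WT growth cones and 13-fold in those labelled KO. The latter did not pass the test but passed under several alternatives. Malat1, Meg3, Rian, Miat and Kcnq1ot1 did not pass in either genotype, and Neat1 was too low to test. The test was edgeR's quasi-likelihood F test, adjusted over all genes by Benjamini-Hochberg. Against these 2 of 7 RNAs tested, both higher, 42.8% of all 15128 genes passed in WT, 23.1% higher and 19.7% lower. With the KO label 1 of 7 passed, beside 38.6% of 15410 genes (21.6% upward and 17.0% downward). The median log2 fold change of the 7 was -0.25 in WT and 0.75 with the KO label, against 0.07 and 0.11 over all genes. The members' share was thus no higher than that of all genes in either genotype.

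**Figure D1:**
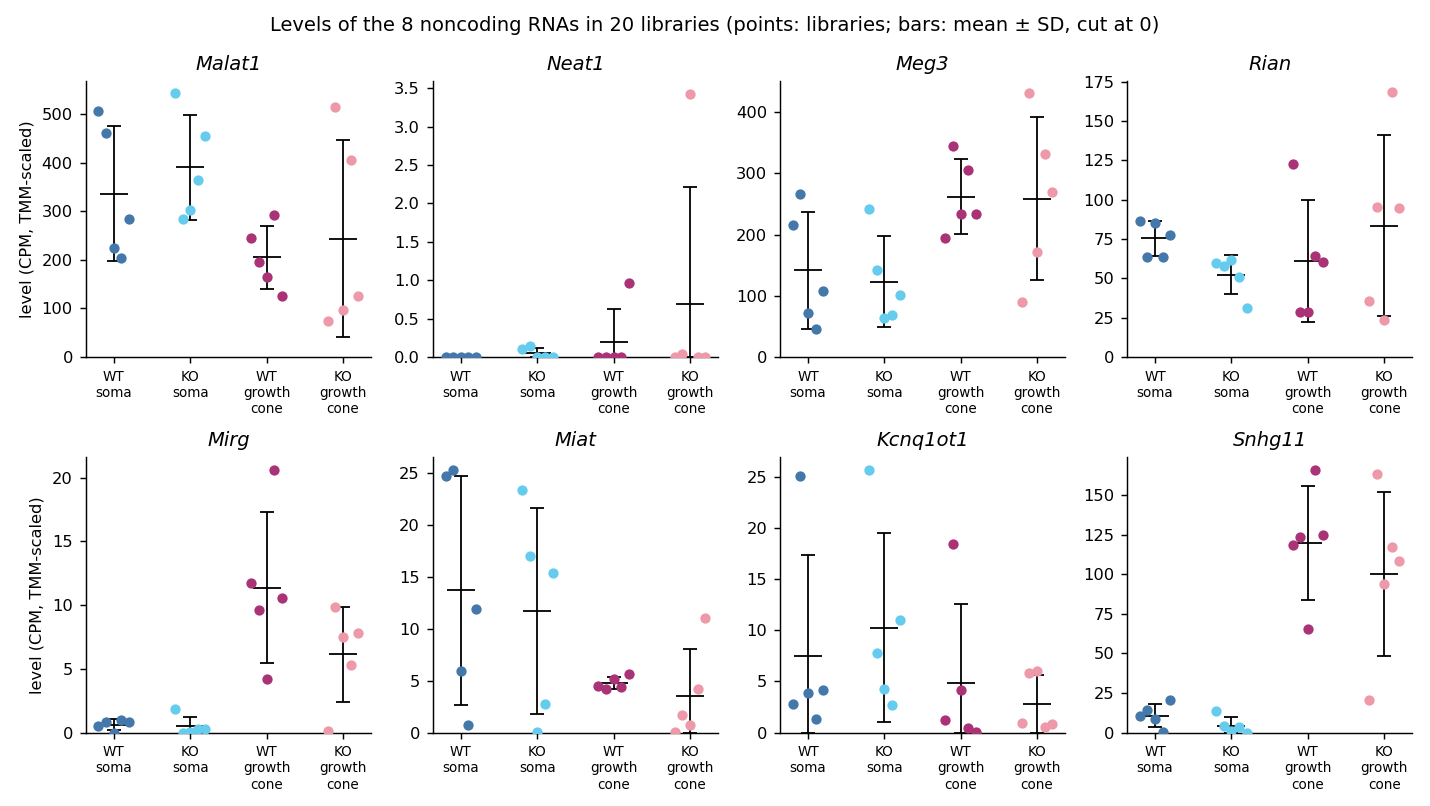
Levels of the 8 RNAs in CPM (y axis, linear, a separate scale per gene) in the 4 groups (x axis). Points are libraries, and bars give the mean and SD of 5 libraries with the lower arm stopped at 0. Snhg11 lies at 65.5 to 166 CPM in WT growth cones and at 0.299 to 20.6 CPM in WT somata.

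Snhg11 stood at 10.3, 14.2, 8.36, 0.299 and 20.6 CPM in WT somata 12, 14, 22, 25 and 26, the numbers being the experiment numbers in the titles. The levels in WT growth cones 7 to 11 were 118, 124, 65.5, 166 and 125 CPM. All growth cone libraries were above all soma libraries, with a log2 fold change of 3.53 (SE 0.72, adjusted p = 0.00184). Somata labelled KO 14, 15, 22, 25 and 26 held 13.7, 4.28, 0.925, 3.60 and 0.0311 CPM, the last being 1 count. Growth cones labelled KO 7 to 11 held 20.3, 163, 93.5, 117 and 108 CPM. Growth cone 7 labelled KO was the lowest of its group but still above every soma labelled KO (log2 fold change 4.55, SE 1.05, adjusted p = 0.00485). Groups without overlap were found for 37.9% of all genes in WT (19.8% higher in growth cones) and 36.9% in the libraries labelled KO (17.9% higher). The adjusted p stayed under 0.05 in all 20 alternatives of either genotype, but the size varied. With the KO label the log2 value was 5.57 without soma 14, 6.06 with adjustment for detected genes and 5.79 by limma-voom, and in WT it was 4.46 by limma-voom.

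Other snoRNA host genes were mostly higher in growth cones too. Of 16 tested, 14 were higher and 0 lower in each genotype, with a median log2 fold change of 3.76 in WT and 3.46 in the libraries labelled KO against 0.07 and 0.11 over all genes. Gas5, a growth-arrest transcript and host of many snoRNAs, was at 454 CPM in WT growth cones and 47.8 CPM in WT somata (3.29, SE 0.32, adjusted p = 8.6e-06). Snhg6 (3.05 in WT and 2.95 with the KO label), Snhg12 (4.38 and 3.84), Snhg20 (4.38 and 3.98), Zfas1 (3.51 and 3.73) and Snhg8 (4.72 and 4.11) were higher in both genotypes. The remaining 2, named after their values were seen, were Snhg14, at 0.71 (adjusted p = 0.0848) in WT and 0.85 (0.204) in those labelled KO, and Snhg17, at 1.04 (0.379) and 1.08 (0.395). Summed over the list, levels were 80.0 to 199 CPM in WT somata and 981 to 1552 CPM in WT growth cones. In the libraries labelled KO the sums were 90.6 to 145 CPM in somata and 931 to 1218 CPM in growth cones.

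Transcripts for proteins that build snoRNA and miRNA particles were lower more often than higher. Of 13 tested, 2 were higher and 6 lower in WT growth cones, and 0 higher and 5 lower in those labelled KO. Nop56, a core protein of box C/D snoRNA particles, was lower in both (-1.40, adjusted p = 0.000128, and -1.38, adjusted p = 0.000664). Drosha, which cuts primary miRNA transcripts in the nucleus, was lower in both (-1.16, adjusted p = 0.00371, and -0.84, adjusted p = 0.0127). Naf1, an assembly factor of box H/ACA particles, was higher in WT (3.02, adjusted p = 0.00757) and at 2.33 with the KO label (adjusted p = 0.0533).

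On chromosome 12, Mirg was the member with the largest fold change in WT. Its levels were 0.502, 0.83, 0, 0.988 and 0.861 CPM in WT somata 12, 14, 22, 25 and 26, which are 0 to 33 counts. In WT growth cones 7 to 11 they were 11.8, 9.64, 4.21, 20.6 and 10.6 CPM, or 128 to 622 counts, and did not overlap with the somata (log2 fold change 4.20, SE 1.01, adjusted p = 0.00545). It passed in all 20 alternatives, with 4.87 by limma-voom.
In somata labelled KO 14, 15, 22, 25 and 26 Mirg was at 1.84, 0, 0.0841, 0.248 and 0.311 CPM. Growth cones labelled KO 7 to 11 held 0.124, 9.87, 7.54, 5.34 and 7.82 CPM. Growth cone 7 labelled KO, with 3 counts, lay among the somata, and the difference did not pass (3.70, SE 1.41, adjusted p = 0.057). Without that library the value was 3.97 (adjusted p = 0.0318), and without soma 14 labelled KO it was 5.30 (adjusted p = 0.0208). With every library kept, the adjusted p was 0.00771 by DESeq2, 0.0389 by limma-voom and 0.0481 under upper-quartile scaling. It was 0.0447 with adjustment for detected genes and 0.0278 with all 20 libraries in the fit. In 11 of 19 alternatives Mirg still did not pass, so its call here depends on the test chosen.

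Meg3 was measured well above the floor in every library. In WT somata 12, 14, 22, 25 and 26 it stood at 216, 266, 71.5, 45.55 and 109 CPM, and in WT growth cones 7 to 11 at 194, 344, 233, 306 and 234 CPM. The groups overlapped, since somata 12 and 14 reached the range of the growth cones (log2 fold change 0.93, SE 0.41, adjusted p = 0.0863). Without WT soma 12 the value was 1.22 (adjusted p = 0.0457), and without WT soma 14 it was 1.29 (adjusted p = 0.0258).
Somata labelled KO 14, 15, 22, 25 and 26 held 242, 142, 63.4, 67.9 and 100.5 CPM. Growth cones labelled KO 7 to 11 held 89.7, 432, 171, 332 and 270 CPM. Again the groups overlapped (1.15, SE 0.45, adjusted p = 0.0655), and without soma 14 or growth cone 7 labelled KO the values were 1.53 (adjusted p = 0.0189) and 1.32 (adjusted p = 0.0276). In both genotypes Meg3 passed under upper-quartile scaling, DESeq2, limma-voom and a filter at a mean of 5 CPM, so its call depends on the test chosen.

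Rian, the snoRNA-bearing middle member, had no common direction. It was at 86.3, 63.7, 85.4, 63.7 and 77.6 CPM in WT somata and 123, 28.5, 28.8, 64.3 and 60.5 CPM in WT growth cones, in the same library order (log2 fold change -0.25, 95% interval -1.06 to 0.56, adjusted p = 0.62). Somata labelled KO held 59.8, 57.9, 61.4, 50.97 and 31.3 CPM and growth cones labelled KO 35.7, 95.3, 23.5, 168 and 94.5 CPM (0.75, -0.24 to 1.74, adjusted p = 0.218). Growth cones spread over 4.31-fold in WT and 7.15-fold in those labelled KO, while WT somata spread over 1.35-fold.

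The proportions of the 3 neighbours varied widely between libraries. Per 100 Meg3 counts there were 24.0 to 140 Rian counts in WT somata (median 71.5) and 8.29 to 63.4 in WT growth cones (median 21). For Mirg the range was 0 to 2.17 per 100 Meg3 counts in WT somata (median 0.313) and 1.81 to 6.74 in WT growth cones (median 4.52). With the KO label, Rian ranged from 24.7 to 96.9 in somata (median 40.7) and from 13.7 to 50.7 in growth cones (median 35.0). Mirg ranged there from 0 to 0.758 (median 0.309) and from 0.139 to 4.41 (median 2.29). The ranges of the compartments overlapped in each case, and the ratios were not tested.

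Dlk1, a membrane-bound relative of Notch ligands read from the paternal chromosome of the same locus, was higher in growth cones. It had 0 to 7 counts in WT somata and 101 to 589 in WT growth cones (log2 fold change 7.78, SE 1.20, adjusted p = 0.000261). In the libraries labelled KO it had 0 to 28 counts in somata and 252 to 703 in growth cones (5.87, SE 1.31, adjusted p = 0.00403). Without WT soma 25 the first value was 9.36, and without soma 14 labelled KO the second was 6.56. Rtl1, a retrotransposon-derived gene antisense to miRNAs of the locus, was at 1.18 ± 0.803 CPM in WT somata and 0.127 ± 0.226 CPM in WT growth cones (SD, n = 5; log2 fold change -3.15, adjusted p = 0.0794). Dio3, the deiodinase that inactivates thyroid hormone, was at 0.374 ± 0.661 and 2.06 ± 1.38 CPM (2.49, adjusted p = 0.244). Neither passed the count filter in the libraries labelled KO, where Dio3 had counts over the floor in 2 of 5 growth cones and 1 of 5 somata. Of 15 genes tested in the interval from Bcl11b past the locus, either genotype had 5 higher and 3 lower in growth cones, led by Evl, an actin regulator (2.15 and 2.36).

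Malat1 was the most abundant of the 8 in somata per kb of exon. WT somata 12, 14, 22, 25 and 26 held 507, 462, 224, 204.8 and 284 CPM. The levels in WT growth cones 7 to 11 were 245, 195, 165, 293 and 126 CPM. The ranges overlapped, and the log2 fold change was -0.67 (SE 0.30, adjusted p = 0.0875). Somata labelled KO 14, 15, 22, 25 and 26 held 543, 285, 303, 365 and 456 CPM, and growth cones labelled KO 7 to 11 held 73.4, 515, 96.5, 407 and 126 CPM. Growth cones 8 and 10 labelled KO were as high as somata, while 7, 9 and 11 were below all of them (-0.60, SE 0.50, adjusted p = 0.373).

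Neat1 was close to absent from the counts. It had 0 counts in all 5 WT somata, where 3 counts would correspond to 0.0892 to 0.172 CPM, and no more than 6 counts in somata labelled KO. WT growth cone 11 had 30 counts, growth cones 8 and 9 labelled KO had 1 and 99, and the other growth cones had 0. In bulk RNA, fewer cells with an RNA cannot be told apart from less RNA per cell. Nor can a low level of Neat1 be told apart from forms without a poly(A) tail, which the priming could miss.

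Miat was near 5 CPM in each WT growth cone and varied widely elsewhere. The levels in WT growth cones 7 to 11 were 4.46, 4.22, 5.17, 4.44 and 5.62 CPM, and WT somata 12, 14, 22, 25 and 26 held 24.7, 25.3, 5.92, 0.748 and 11.9 CPM. Only soma 25 lay below the growth cones (log2 fold change -1.47, SE 0.76, adjusted p = 0.136), and without that library the value was -1.71 (adjusted p = 0.037).
Somata labelled KO held 23.4, 17.0, 0.105, 2.80 and 15.4 CPM, and growth cones labelled KO 0.0414, 1.66, 0.692, 4.19 and 11.1 CPM (-1.66, SE 1.31, adjusted p = 0.35). A further limit is that 24.3% of the exonic bases of Miat overlap the gene Gm26953 on the opposite strand. The use of strand in counting is not given in the sources used here, and the kit does not mark strand, so reads of the 2 cannot be told apart.

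Other RNAs known to stay in the nucleus gave a mixed picture. Of 14 tested, either genotype had 2 that were higher and 2 that were lower in growth cones. Tug1, a neuronal long noncoding RNA, was at 29.7 CPM in WT growth cones against 181 CPM in the somata (-2.56, adjusted p = 2.55e-05) and was likewise lower in those labelled KO (-2.35, adjusted p = 3.67e-05). Ogt, a glycosyltransferase transcript with a retained intron, was lower in both (-2.21 and -1.96). Luc7l2, of a splicing factor, was higher in both (1.80 and 1.42). Transcripts for proteins of the bodies that Malat1 and Neat1 belong to were lower more often than higher. Of 20 paraspeckle protein genes, 1 was higher and 11 lower in WT and 2 higher and 11 lower in the libraries labelled KO. Nono, which binds Neat1, was lower in both (-1.43, adjusted p = 3.41e-05, and -1.30, adjusted p = 0.000678), whereas its partner Sfpq was higher in both (1.16, adjusted p = 0.000874, and 1.36, adjusted p = 0.000103). Of 20 speckle and splicing factor genes, 1 was higher and 11 lower in WT and 1 higher and 8 lower in the libraries labelled KO. Those 11 were 6 or 7 under the 3 other scalings and 6 without WT soma 12, 14 or 25, and the 8 were 5 under upper-quartile scaling. Sf3b1, a core spliceosome protein, was lower in both genotypes (-1.96 and -1.58). Among 904 other genes with long noncoding biotypes tested in WT, 281 were higher and 40 lower (median 1.46), and among 967 in the libraries labelled KO 244 were higher and 38 lower (median 1.42).

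**Figure D2:**
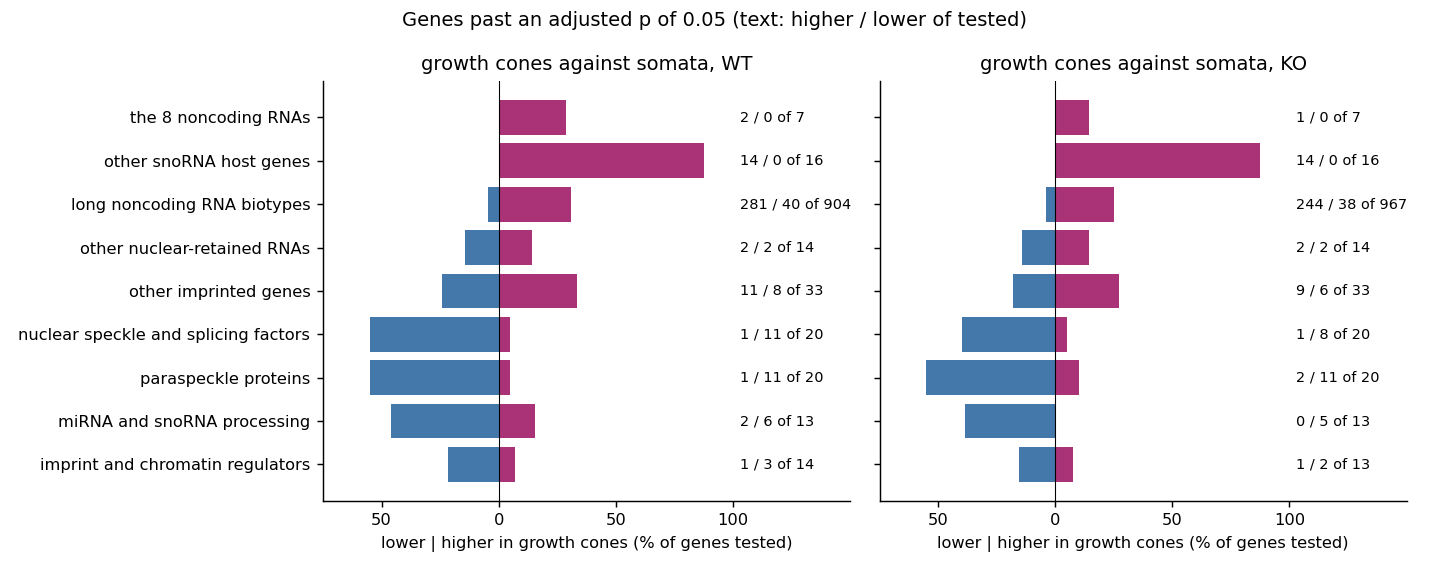
Share of the genes tested in each list (x axis, percent) that were lower (left, blue) or higher (right, purple) in growth cones than in somata at an adjusted p under 0.05, for WT and for libraries labelled KO. The numbers give genes higher, genes lower and genes tested, such as 14 / 0 of 16 for other snoRNA host genes.

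Kcnq1ot1 varied more within groups than between them. WT somata 12, 14, 22, 25 and 26 held 2.82, 25.1, 3.84, 1.35 and 4.13 CPM. The levels in WT growth cones 7 to 11 were 1.20, 18.4, 4.12, 0.497 and 0.0319 CPM. Soma 14 and growth cone 8 stood apart, and the difference was -0.57 on the log2 scale (95% interval -3.34 to 2.19, adjusted p = 0.748). Without soma 14 it was 0.69. Somata labelled KO 14, 15, 22, 25 and 26 held 25.7, 7.73, 4.23, 2.65 and 11 CPM, and growth cones labelled KO 7 to 11 held 0.953, 5.82, 5.98, 0.512 and 0.854 CPM (-1.77, -3.80 to 0.25, adjusted p = 0.155). Its host gene Kcnq1, a potassium channel, was listed at 0 in 16 of the 20 libraries and reached at most 105 counts. Because Kcnq1ot1 lies antisense inside Kcnq1, unstranded reads of unspliced Kcnq1 RNA cannot be told apart from it.
Of 10 protein-coding genes around Kcnq1ot1, 4 could be tested. Nap1l4, a histone chaperone, was lower in growth cones of both genotypes (-1.11, adjusted p = 5.03e-05, and -1.46, adjusted p = 4.46e-05). Tssc4 was at -0.62 in WT (adjusted p = 0.149) and lower in the libraries labelled KO (-0.76, adjusted p = 0.0252). Without soma 15 or 22 labelled KO its adjusted p was 0.0502 and 0.0534. Cdkn1c, the growth inhibitor p57 and a known target of silencing by Kcnq1ot1, was at 66.5 ± 10.6 CPM in WT somata and 68.3 ± 26.6 CPM in WT growth cones (SD, n = 5; 0.08, adjusted p = 0.833). With the KO label it was at 0.19 (adjusted p = 0.513). Cd81, a tetraspanin, was at 0.37 (adjusted p = 0.122) and 0.36 (adjusted p = 0.145).

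Imprinted genes elsewhere in the genome moved in both directions. Of 33 tested, 11 were higher and 8 lower in WT growth cones, and 9 higher and 6 lower in those labelled KO. Nnat, a small membrane protein of developing neurons, was at 3177 CPM in WT growth cones and 423 CPM in WT somata (2.95, adjusted p = 1.96e-06), and at 2.98 in the libraries labelled KO. Nap1l5 (2.51 in WT and 2.25 with the KO label), Peg3 (1.09 and 1.97) and Zrsr1 (4.55 and 4.34) were higher in both genotypes. Copg2 (-3.24 and -2.42) and Trappc9 (-2.44 and -1.54) were lower in both. Among the regulators of imprints and chromatin, 1 was higher and 3 lower of 14 in WT, and 1 higher and 2 lower of 13 in the libraries labelled KO. Trim28, a corepressor that keeps imprints, was lower in both (-1.16 and -0.97).

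The growth cone libraries also held more RNA of several cell types other than projection neurons. Hindbrain and spinal cord Hox genes summed to 0.0527 to 0.242 CPM in WT somata and 86.3 to 177 CPM in WT growth cones, and to 0 to 0.0391 and 50.2 to 243 CPM in those labelled KO. Of these 14 genes, 6 were at 0 in all WT somata and 11 in all somata labelled KO, and all 8 tested in WT and 6 tested in KO libraries were higher in growth cones. Astrocyte markers summed to 32.6 to 280 CPM in WT somata and 1906 to 2525 CPM in WT growth cones, with 9 of 10 higher. In the libraries labelled KO they summed to 136 to 370 CPM and 1988 to 2654 CPM, with 8 of 10 higher. Oligodendrocyte markers (63.9 to 119 against 608 to 2385 CPM in WT, 7 of 10 higher) and vessel and blood markers (17.3 to 39.3 against 330.0 to 552 CPM, 5 of 9 higher) moved the same way. Interneuron markers summed to 164 to 264 and 821 to 1064 CPM in WT (9 of 11 higher). In the libraries labelled KO the growth cone sums were 589 to 1711 CPM for oligodendrocyte, 323 to 670 CPM for vessel and blood and 830 to 1077 CPM for interneuron markers. Microglia markers did not move this way, with 40.25 to 172 CPM in WT somata and 78.8 to 118 CPM in WT growth cones (2 higher and 1 lower of 10). With the KO label they summed to 47.4 to 188 and 52.2 to 146 CPM (2 higher and 0 lower of 10). Of the cycling cell markers 2 were higher and 1 lower of 9 in WT, and 4 higher and 1 lower of 10 with the KO label. None of the astrocyte, oligodendrocyte, vessel or interneuron markers was at 0 in a whole group. Their part in the higher Snhg11, Mirg, Dlk1 and snoRNA host levels of growth cones was not tested.

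**Figure D3:**
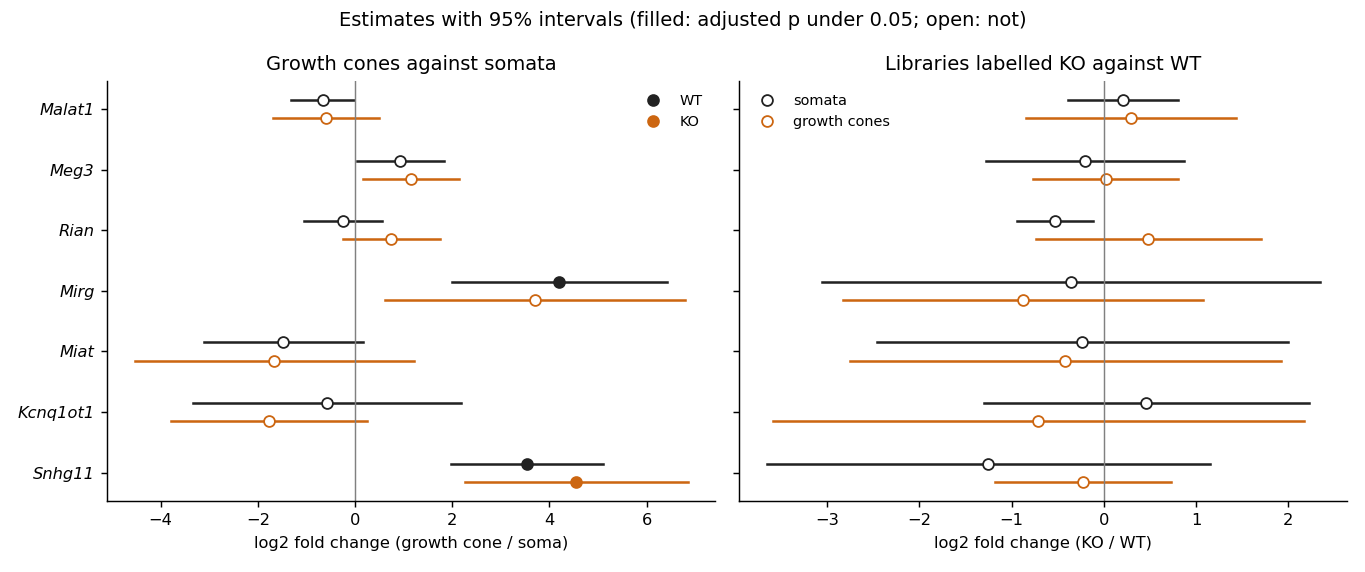
Log2 fold changes (x axis) with 95% intervals of the 7 RNAs tested (y axis), growth cones against somata on the left and libraries labelled KO against WT on the right. Filled points passed an adjusted p of 0.05: Mirg and Snhg11 in WT and Snhg11 in the libraries labelled KO on the left, and none on the right.

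Between genotypes none of the 7 RNAs tested passed in somata, where 0.731% of 14911 genes did. At an unadjusted p under 0.05 the count was 1, Rian, against 8.57% of all genes. In somata labelled KO Rian was at 31.3 to 61.4 CPM, below the 63.7 to 86.3 CPM of WT somata without overlap (log2 fold change -0.53, SE 0.19, unadjusted p = 0.0151, adjusted p = 0.365). Groups without overlap were found for 3.17% of all genes, 1.29% in that direction. Within the experiment numbers that both genotypes carry, the level in the library labelled KO over that in WT was 0.938, 0.719, 0.8 and 0.403 in 14, 22, 25 and 26. Soma libraries labelled KO were also deeper (35243688 to 51205154 counts against 18962308 to 36059112 in WT) and had a higher interneuron marker sum (408 to 571 CPM against 164 to 264 CPM). Of 10 such markers tested 1 was higher, the neuropeptide Npy (471 against 113 CPM), and the median of the 10 was 0.10. The part of either in the Rian values was not tested.
The other estimates had wide intervals. Malat1 was at 0.21 on the log2 scale (95% interval -0.39 to 0.81), with 1.18, 1.35, 1.78 and 1.61 times the WT level within experiment numbers 14, 22, 25 and 26. The somata without a partner went the other way. WT soma 12 held 507 CPM, the highest of its group, and soma 15 labelled KO held 285 CPM, the lowest of its group. Meg3 was at -0.21 (-1.28 to 0.87) and Miat at -0.23 (-2.46 to 1.99). Kcnq1ot1 was at 0.46 (-1.31 to 2.22), with 1.02, 1.1, 1.97 and 2.66 times the WT level within numbers 14, 22, 25 and 26. Mirg was at -0.36 (-3.06 to 2.34), and Snhg11 was at -1.25 (-3.65 to 1.15). Adjusted p-values of these 6 ran from 0.925 to 0.996. These intervals leave room for changes of more than 2-fold in every one of them but Malat1. Ratios to WT within experiment numbers went both ways for Meg3 (0.886 to 1.49), Miat (0.0178 to 3.75) and Snhg11 (0.00151 to 12). Those of Mirg, where WT had counts, also went both ways (0.251 to 2.21). The 7 had a median of -0.23, against -0.003 over all genes. No gene of the other imprinted, Dlk1-Dio3, Kcnq1, snoRNA host, nuclear-retained, paraspeckle, speckle, chromatin or processing lists passed between genotypes in somata. Subcerebral projection neuron markers did change there, with Pcp4 (-1.86) and Crym (-2.20) lower and Etv1 (1.73) and Tox (0.56) higher in somata labelled KO.

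In growth cones 0 of 7 passed between genotypes, as did 0 of all 15419 genes (0%) by edgeR. For all genes the count was 329 (2.13%) at an unadjusted p under 0.05 and 11 by DESeq2. For the 7 RNAs it was 0 by either. Adjusted p-values were 0.999 for each. Estimates were 0.29 for Malat1 (95% interval -0.85 to 1.43), 0.02 for Meg3 (-0.76 to 0.80), 0.48 for Rian (-0.74 to 1.70) and -0.23 for Snhg11 (-1.18 to 0.73). Mirg (-0.87), Miat (-0.42) and Kcnq1ot1 (-0.71) had intervals of -2.83 to 1.08, -2.75 to 1.92 and -3.59 to 2.17. No member's groups were free of overlap, against 0.532% of all genes.
The difference between the compartments in the effect of genotype was tested over all 20 libraries. None of the 7 RNAs passed by edgeR, against 0.0397% of 17645 genes, or had an unadjusted p under 0.05, against 6.98%. Rian had the lowest p of them (0.98, SE 0.62, unadjusted p = 0.13, adjusted p = 0.916).

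Per kb of exon, the order of the members differed between compartments. In WT somata Malat1 was highest at 48.2 ± 19.95 CPM per kb (SD, n = 5), then Meg3 (7.82 ± 5.26), Rian (2.36 ± 0.348), Miat (1.48 ± 1.19), Snhg11 (1.26 ± 0.878), Mirg (0.0873 ± 0.0546), Kcnq1ot1 (0.0799 ± 0.107) and Neat1 (0). Malat1 and Meg3 did not overlap over libraries, while from Meg3 to Kcnq1ot1 each overlapped with the next in turn. In WT growth cones Malat1 (29.3 ± 9.44), Meg3 (14.5 ± 3.38) and Snhg11 (14.03 ± 4.19) overlapped in turn. Rian (1.91 ± 1.20), Mirg (1.56 ± 0.813) and Miat (0.515 ± 0.0632) followed, then Kcnq1ot1 (0.0521 ± 0.0832) and Neat1 (0.00922 ± 0.0206). There was no overlap between Snhg11 and Rian or between Miat and Kcnq1ot1. In the libraries labelled KO the first 3 were Malat1, Meg3 and Rian in somata and Malat1, Meg3 and Snhg11 in growth cones.

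**Figure D4:**
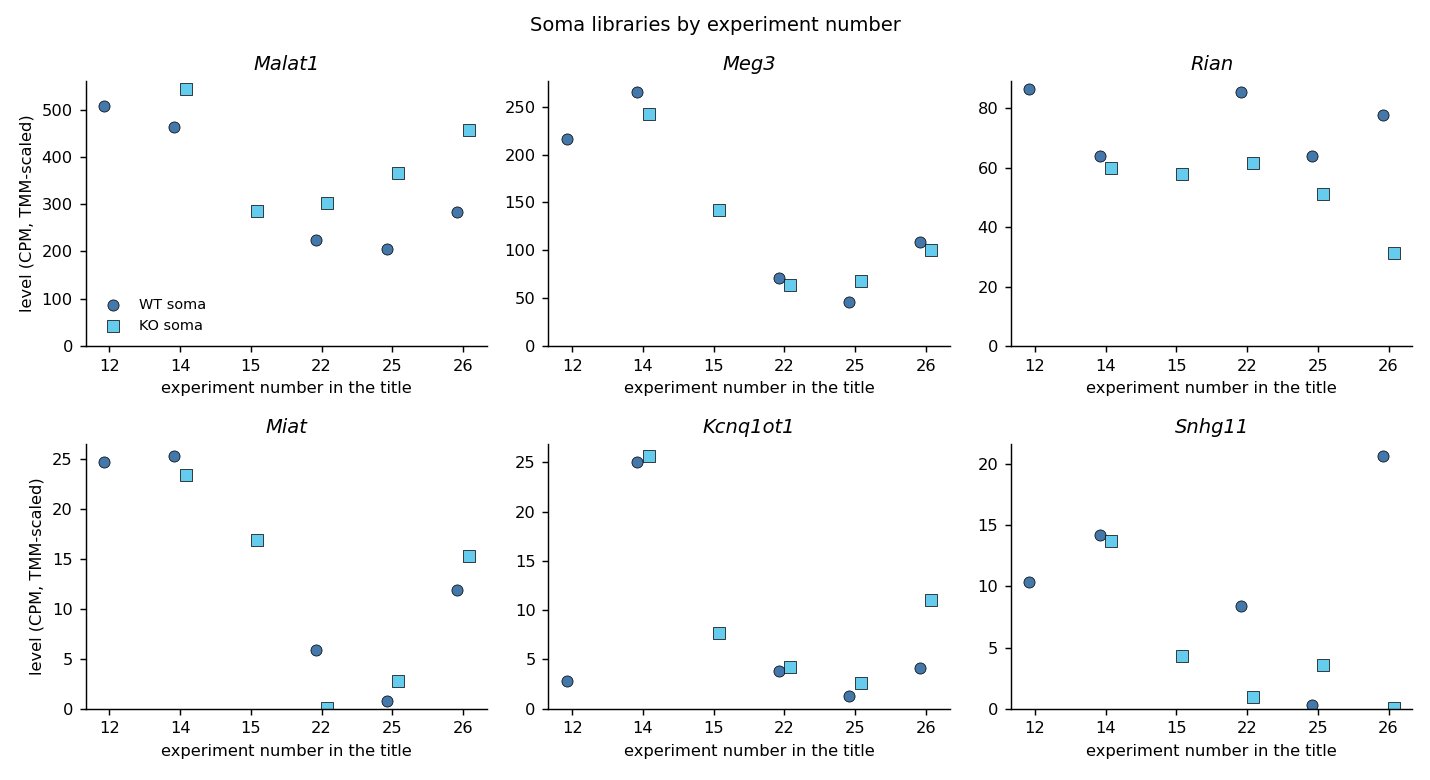
Levels of 6 RNAs in the 10 soma libraries (y axis, CPM) by the experiment number in the title (x axis), circles for WT and squares for those labelled KO. Meg3 reaches 216 to 266 CPM in experiments 12 and 14 and 45.55 to 71.5 CPM in 22 and 25, in both genotypes where both are present.

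Soma libraries with the same experiment number were close in some members and far apart in others. In experiment 14 Kcnq1ot1 was at 25.1 CPM in WT and 25.7 CPM in the library labelled KO, and no other soma exceeded 11 CPM, but in experiment 26 the level labelled KO was 2.66 times that of WT. Miat was at 25.3 and 23.4 CPM in experiment 14, yet at 5.92 and 0.105 CPM in experiment 22 and at 0.748 and 2.80 CPM in experiment 25. Meg3 was at 266 and 242 CPM in experiment 14 and at 71.5 and 63.4 CPM in experiment 22. Snhg11 was close in experiment 14 (14.2 and 13.7 CPM), while in experiment 26 it was at 20.6 CPM in WT and at 1 count in the library labelled KO.

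**Figure D5:**
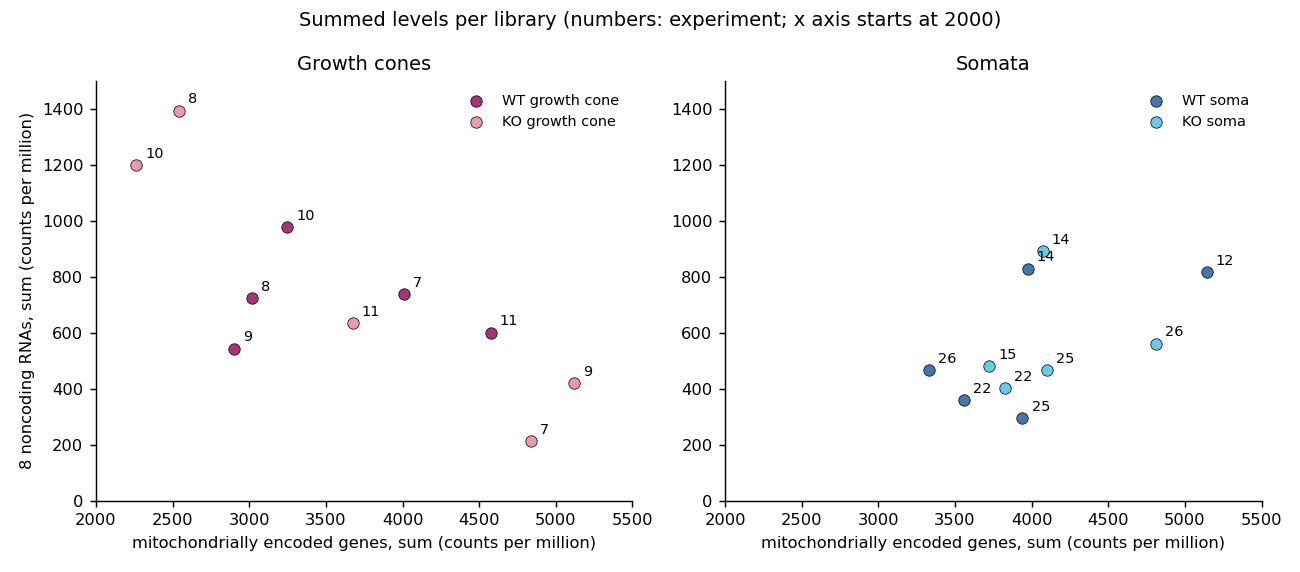
Summed level of the 8 RNAs (y axis, CPM of the library total) against that of the 13 mitochondrially encoded genes (x axis, starting at 2000 CPM) for growth cones on the left and somata on the right, 1 point per library with its experiment number. Growth cones 7 and 9 labelled KO lie lowest, at 212 and 420 CPM, with 4835 and 5120 CPM of mitochondrial genes.

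In the summed level of the 8 RNAs, growth cones labelled KO differed most among themselves, which was not so for every single RNA. Their summed level of the 8 RNAs was 212, 1394, 420, 1199 and 635 CPM in libraries 7 to 11, beside 4835, 2539, 5120, 2264 and 3674 CPM for the 13 mitochondrially encoded genes. The sums in WT growth cones 7 to 11 were 739, 725, 544, 977 and 601 CPM, beside 4007, 3019, 2900, 3246 and 4576 CPM. Growth cone 7 labelled KO was the lowest of its group in Malat1, Meg3, Mirg, Miat and Snhg11. The part of the mitochondrial share in these values was not tested.

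As a description of which patterns were alike, the log2 levels of 11332 genes were correlated with each member over the 20 libraries after subtraction of the group means. All points share library and depth, and no test was made. Among the members, Meg3 went with Miat (r = 0.78), Malat1 (0.73) and Snhg11 (0.62). Mirg and Snhg11 had r = 0.97 over the 10 growth cones and 0.04 over the 10 somata. Growth cone 7 labelled KO was the lowest growth cone in both, with 3 counts of Mirg, and r without it was not computed. Meg3 and Rian, neighbours on chromosome 12, had 0.27 over all 20. The genes most like each member were Zfp322a (0.83) and Slco4c1 (0.82) for Malat1, Pfkp (0.79) and Stx16 (0.77) for Meg3, and Ap1ar (0.87) and Ppp2r5c (0.84) for Rian. For Mirg they were Mtmr10 (0.82) and Slc50a1 (0.81), for Miat Vwa5b2 (0.86) and Snhg17 (0.84), for Kcnq1ot1 Zfp664 (0.81) and Lrrcc1 (0.80), and for Snhg11 Shisa6 (0.84) and Fbxl19 (0.79). These were picked as the 2 highest of 11332 values per member, and some held in only 1 compartment. Slco4c1 had 0.04 with Malat1 over the somata and 0.94 over the growth cones. Shisa6 had 0.94 with Snhg11 over the somata and 0.17 over the growth cones. Others held in both, such as Stx16 with Meg3 (0.84 and 0.70). Ppp2r5c also lies on chromosome 12, 2.44 Mb from Bcl11b.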

How the data were processed

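Gene counts of 20 libraries were deposited by the authors as raw whole numbers in the layout of featureCounts, with no scaling. Per the submitters' processing notes, Trimmomatic 0.39, STAR 2.7.1a and featureCounts 1.5.0 were used with build GRCm39, whereas the table's coordinates are those of GRCm38. GENCODE M21 gave the symbols, and 54515 of 55487 genes (98.2%) match its exons exactly. How reads with several alignments were counted is not given in the sources used here. SMART-seq v4 and Nextera XT were used per the labels, without molecular identifiers, so a floor of 3 counts covers counting error only.

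Groups come from the titles. edgeR 4.0.16 in R 4.3.3 was run with filterByExpr (minimum count 10), TMM scaling, the quasi-likelihood F test and Benjamini-Hochberg adjustment over all genes tested, at a threshold of 0.05, on the 2 groups compared. The interaction used all 20 libraries. Levels are CPM with 1 TMM scaling over all 20 libraries, and list sums are CPM of the library total. SE and 95% intervals were derived from the F statistics. Alternatives used DESeq2 1.42.0 and limma 3.58.1. The procedure was tested on simulated data. The members and lists were chosen with earlier results of these data known. Named genes were all members, every tested gene of both imprinted loci, up to 4 genes per list and comparison with the lowest p past the threshold (not all are printed), and the 2 most alike genes per member.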

Additional observations from a re-analysis of the deposited data

Results flagged for a closer look

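In 31 groups of 5 libraries of a member, 5 had 1 library far above the rest by Dixon's criterion. Its rate of about 1 in 20 groups holds for normally distributed values. Several of these levels are near 0 and skewed, so 5 of 31 cannot be set against that rate. Neat1 was at 0.957 CPM in WT growth cone 11, with 0 in the other 4, and at 3.42 CPM in growth cone 9 labelled KO, with 0.0362 CPM next. Mirg was at 1.84 CPM in soma 14 labelled KO, with 0.311 CPM next. Kcnq1ot1 was at 25.1 CPM in WT soma 14, with 4.13 CPM next, and at 18.4 CPM in WT growth cone 8, with 4.12 CPM next.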

How the results depend on the processing

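Over the alternatives run, 3568 of 3755 estimates for named genes kept direction and side of the threshold. Another 90 lost the threshold, 39 gained it and 58 changed sign, 0 of these 58 past the threshold. Many of these genes were named because they passed the threshold in the same data, and many alternatives leave out only 1 library. The totals thus say little about how stable the results of the 8 RNAs are. Upper-quartile scaling moved the median of all genes from 0.07 to 0.28 in WT and from 0.11 to 0.31 in the libraries labelled KO between compartments. Between WT compartments Meg3 also passed under upper-quartile scaling, DESeq2, limma-voom, a filter at a mean of 5 CPM, and without WT soma 12 or 14. Miat also passed there without WT soma 25. The number of the 8 RNAs past the threshold between compartments became 4 in WT at an FDR of 0.10. In the libraries labelled KO it became 3 under upper-quartile scaling, DESeq2, limma-voom, detected genes as a covariate and an FDR of 0.10, and 2 with a filter at a mean of 5 CPM or all 20 libraries in the fit. Leaving out single libraries gave 1 to 3, with 3 without growth cone 7 or soma 14 labelled KO. Between genotypes, the 109 genes of the somata became 389 by DESeq2 and 30 with all 20 libraries, and 67 to 107 with single libraries left out (68 without WT soma 22, 67 without soma 22 labelled KO). The 0 of the growth cones became 11 by DESeq2 and 7 with all 20 libraries. The 7 of the interaction became 273 by DESeq2, 4 with the covariate, 21 at an FDR of 0.10, and 5 to 12 with single libraries left out (11 and 12 without growth cone 7 labelled KO and WT). Causes were not tested.

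Within each compartment, libraries of both genotypes mostly share experiment numbers. Deviations from the group means were correlated between libraries of the same number over 11338 genes. The values were -0.0123 to 0.109 in somata and 0.0168 to 0.0997 in growth cones. Each library correlated best with its own number in 3 of 4 and 3 of 5 numbers, a hint from the data and not from the design. With the number as a replicate block, 34 genes passed in somata and 0 in the interaction, and Bcl11b in somata lost its call (0.68, adjusted p = 0.162). Signs changed for Meg3 in somata (0.037) and, in growth cones, for Malat1 (-0.11), Meg3 (-0.16), Kcnq1ot1 (0.35) and Bcl11b (-0.016), and in the interaction for Malat1 (-0.67) and Meg3 (-0.21). No paired analysis was possible because of unshared numbers between growth cones and somata.

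None of the other estimates that changed sign had passed the threshold. Under limma-voom they were Cdkn1c between WT compartments (-0.010), Malat1 (-0.081), Meg3 (-0.16), Kcnq1ot1 (0.61) and Bcl11b (-0.018) between growth cones, and Malat1 (-0.29) and Meg3 (-0.020) in the interaction. Meg3 between growth cones was at -0.0039 under upper-quartile scaling and -0.018 with all 20 libraries, and Mirg in the interaction at 0.25 with the covariate. With single libraries left out, values between WT compartments ran from -2.28 to 0.69 for Kcnq1ot1 and from -0.048 to 0.25 for Cdkn1c. Between somata of the 2 genotypes they ran from -0.61 to 0.15 for Meg3, -0.65 to 0.11 for Miat and -0.22 to 1.75 for Kcnq1ot1. Between growth cones they ran from -0.18 to 0.52 for Malat1, -0.25 to 0.24 for Meg3, -1.18 to 0.96 for Kcnq1ot1, -0.48 to 0.036 for Snhg11 and -0.11 to 0.15 for Bcl11b. In the interaction they ran from -0.38 to 0.27 for Malat1, -0.12 to 0.60 for Meg3, -0.82 to 1.08 for Mirg, -1.24 to 0.22 for Miat and -2.46 to 0.48 for Kcnq1ot1. In WT somata neither Neat1 nor Mirg exceeded 33 counts in a library, so their levels there rest on few counts.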
